A study of Mus musculus with 6 samples.

Results

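The non-collagen components of the basement membrane, the thin matrix sheet under epithelium and around vessels, muscle, fat and nerve, were followed in fibroblasts sorted from mouse mammary tumours. They comprise 10 genes, taken by symbol: the laminin chains Lama2, Lama4, Lama5, Lamb1, Lamb2 and Lamc1, the nidogens Nid1 and Nid2, and the heparan sulfate proteoglycans Hspg2 (perlecan) and Agrn (agrin). All 10 were among the 18197 symbols of the count table, and all 10 were among the 16543 genes with enough counts to be tested. They were picked by symbol and not by a threshold on measured values. Below, mPGES-1 KO and WT stand for the libraries that carry these labels.

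Tumours arose from the polyoma middle T oncogene (PyMT) in mice of the C57BL/6 strain and were collected between 16 and 20 weeks. RNA was sequenced from cancer-associated fibroblasts obtained by fluorescence-activated sorting, in 3 libraries labelled mPGES-1 KO and 3 labelled WT, and the PyMT oncogene is common to both groups. The enzyme mPGES-1 (microsomal prostaglandin E synthase-1) forms prostaglandin E2 (PGE2), and the series asks which transcripts of these cells depend on it. No source used here states which promoter drives the oncogene, which cells lack mPGES-1 or which surface markers were sorted on.

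A laminin is a trimer of an alpha, a beta and a gamma chain. Its short arms join neighbouring laminins into a sheet, and the end of the alpha chain binds integrins and dystroglycan on the cell surface. Nidogens bind both laminin and collagen IV, and perlecan and agrin carry heparan sulfate chains that hold growth factors and water. In the mammary gland this sheet separates the ducts from the stroma, and contact with laminin sustains milk gene expression in cultured mouse mammary epithelium.

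Total counts ran from 23013498 to 43648450 per library. Ptges, the gene of mPGES-1, had 186, 137 and 129 CPM in libraries carrying the mPGES-1 KO label and 31.9, 19.2 and 27.9 CPM in those labelled WT, where CPM are counts scaled by TMM to a common library size. It was thus higher where a lost transcript would be lower, and counts per gene cannot separate a deleted part from the rest, so every direction below rests on the labels. Fibroblast markers were present in all libraries: 9 of the 10 listed were in the table, summing to 5405 to 15239 CPM in mPGES-1 KO and 7252 to 21269 CPM in WT, and the groups overlapped. Markers of other cell types moved with the labels. Of 14 pericyte and vascular smooth muscle markers, 10 fell and 0 rose, with sums of 204 to 435 CPM in mPGES-1 KO and 3544 to 8486 CPM in WT. Of 12 luminal epithelial markers, 5 rose and 0 fell, with sums of 15998 to 19024 CPM in mPGES-1 KO and 3434 to 4623 CPM in WT. Here fell and rose mean called by the test described below, by which 1.56% of all tested genes fell and 1.2% rose. No marker of either list was at 0 in any library. In every mPGES-1 KO library the luminal sum lay above the fibroblast sum, and in every WT library below it. Sums of different lists depend on the genes listed, so they give no share of cells. In bulk libraries such as these, fewer cells of a type and less RNA per cell cannot be told apart, and the part of these markers in the results below was not tested.

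Under the mPGES-1 KO label, the laminin alpha 4 gene Lama4 fell to 40.2 ± 16.2 CPM, against 148 ± 16.2 CPM under the WT label (SD, n = 3 each), and it was the only one of the 10 genes that passed the test. Lama5 was the only one with a positive log2 fold change, and it did not pass. The other 8 genes had negative log2 fold changes from -1.89 to -0.25 and did not pass. The test was edgeR's quasi-likelihood test, two-sided, with Benjamini-Hochberg adjustment over all 16543 genes and a call at an adjusted p under 0.05. By this rule 1 of the 10 genes was lower, where 1.56% of all tested genes were, and 0 of 10 were higher, where 1.2% of all tested genes were. At an unadjusted p under 0.05, 4 of the 10 were lower and 0 higher, where 10.5% of all tested genes were lower and 8.56% higher, which is the background for every count of this kind below, and DESeq2 and limma-voom also called 0 higher. Of the 16543 genes, DESeq2 called 1097 lower and 996 higher, and limma-voom 967 lower and 977 higher. These are the background for their counts below. The median log2 fold change was -1.08 over the 10 genes and -0.04 over all tested genes. In 2 of the 10 genes every mPGES-1 KO library lay below every WT library, where 15.7% of all tested genes did so, and in 0 of 10 every mPGES-1 KO library lay above, where 12.2% did.

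**Figure D1:**
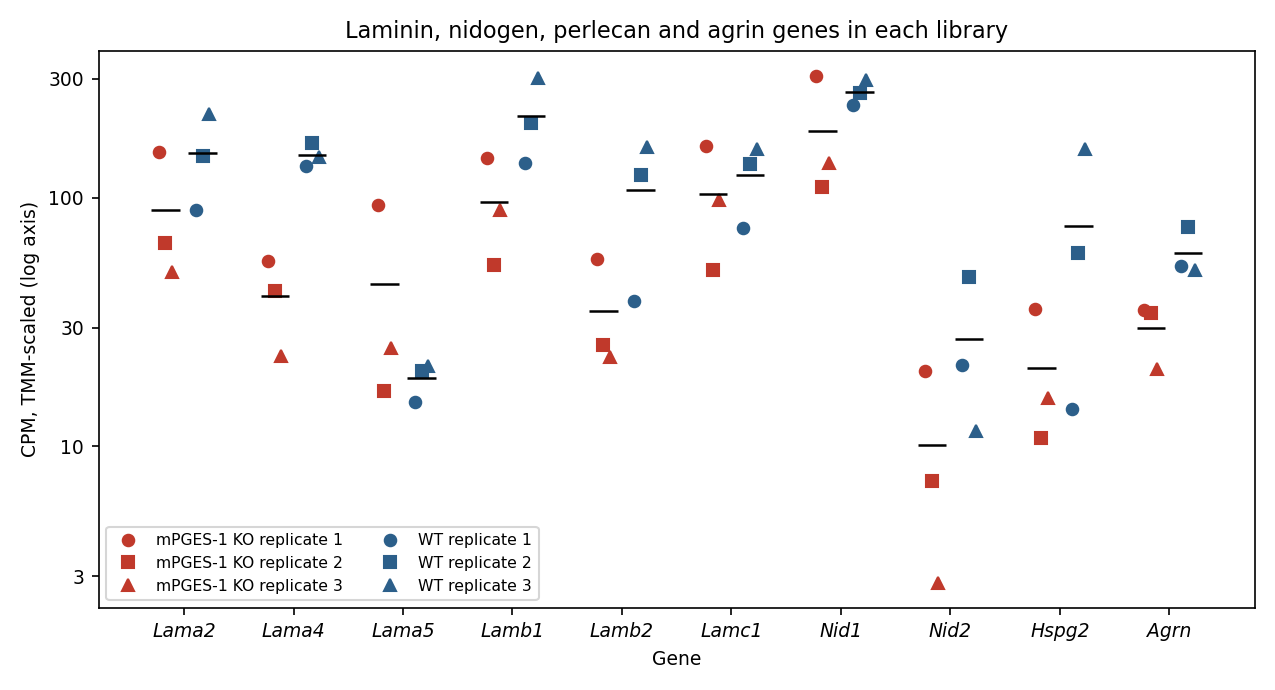
TMM-scaled CPM (log axis) of the 10 genes in each library, with mPGES-1 KO in red left of WT in blue, one symbol shape per replicate number and a black bar at the group mean. Lama4 and Agrn are the genes whose groups stand apart, and mPGES-1 KO replicate 1 is the highest red point of every gene.

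The plot of CPM by library shows a shared order among libraries. Within mPGES-1 KO, replicate 1 was the highest library for all 10 genes, and replicate 2 or replicate 3 was the lowest for 5 genes each. Within WT, replicate 3 was the highest for 7 genes and replicate 2 for 3, and replicate 1 was the lowest for 8. Such an order over all tested genes was not counted, so it is not shown to be particular to the 10 genes. The sum over the 10 genes was 1061 CPM in mPGES-1 KO replicate 1, 418 CPM in replicate 2 and 485 CPM in replicate 3, against 814, 1238 and 1520.0 CPM in WT replicates 1 to 3. The summed level of mPGES-1 KO replicate 1 thus lay above that of WT replicate 1. The fibroblast markers were also highest in mPGES-1 KO replicate 1 and in WT replicate 3, at 15239 and 21269 CPM. Their lowest WT sum was in replicate 2, at 7252 CPM beside 10189 CPM in replicate 1, unlike the sum of the 10 genes. Proteases that act on basement membranes, listed below, were highest in the same libraries, at 6937 and 6142 CPM. The part of either list in the level of the laminin genes was not tested.

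Lama4 encodes the alpha chain of laminins found around small vessels and mesenchymal cells. This chain lacks the short arm that most alpha chains carry. The gene lies on chromosome 10 from 38965515 to 39110188, plus strand, in the GENCODE M21 annotation (GRCm38, the same assembly as mm10). Its level was 55.4, 42.1 and 23.1 CPM in the mPGES-1 KO libraries, in order of replicate, and 134, 166 and 146 CPM in WT replicates 1 to 3. All 3 mPGES-1 KO libraries lay below all 3 WT libraries. Its fitted log2 fold change was -1.88 ± 0.36 (SE; adjusted p = 0.0402, edgeR), and the mean was 3.69-fold lower in mPGES-1 KO. The call rests on all 6 libraries together. It was lost when any one of them was left out, with log2 fold changes from -2.18 to -1.60 and adjusted p from 0.0550 to 0.171.

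Lama5 encodes the alpha chain of laminins under epithelia and mature vessels. The gene lies on chromosome 2 from 180176373 to 180225859, minus strand. Its level was 93.0, 16.7 and 24.8 CPM in the mPGES-1 KO libraries and 15.1, 20.1 and 21.1 CPM in WT replicates 1 to 3. The 3 WT libraries lay close together, and mPGES-1 KO replicate 1 stood above every other library while replicate 2 lay inside the WT range. The log2 fold change of 1.26 ± 0.64 (SE) did not pass (adjusted p = 0.351, edgeR) and was 0.15 without mPGES-1 KO replicate 1.

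Lama2 encodes the alpha chain of muscle and peripheral nerve laminin, whose loss causes congenital muscular dystrophy in humans and mice. The gene lies on chromosome 10 from 26980036 to 27619758, minus strand. It was at 152, 65.9 and 50.1 CPM in mPGES-1 KO and at 89.1, 147 and 218 CPM in WT. The groups overlapped, and the log2 fold change of -0.76 ± 0.49 (SE) did not pass (adjusted p = 0.474, edgeR).

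The promoters of Lama5, the gene with the positive difference, and of both heparan sulfate proteoglycan genes, Agrn and Hspg2, are given here for comparison of their core elements. They come from RefSeq on GRCm38.p6, from 250 bases before to 50 after the annotated start, written 5′ to 3′ on the gene's strand. Capitals mark the GC box GGGCGG or its reverse complement CCGCCC, a site known to bind factors of the Sp and KLF families.
Lama5 promoter, chr2:180225810-180226109, minus strand: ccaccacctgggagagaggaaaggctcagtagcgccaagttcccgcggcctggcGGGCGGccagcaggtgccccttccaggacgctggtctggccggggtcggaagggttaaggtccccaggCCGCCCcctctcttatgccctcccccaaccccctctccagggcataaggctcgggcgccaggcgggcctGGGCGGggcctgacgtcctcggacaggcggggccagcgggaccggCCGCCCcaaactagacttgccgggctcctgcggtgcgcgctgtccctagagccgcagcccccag
Agrn promoter, chr4:156197439-156197738, minus strand: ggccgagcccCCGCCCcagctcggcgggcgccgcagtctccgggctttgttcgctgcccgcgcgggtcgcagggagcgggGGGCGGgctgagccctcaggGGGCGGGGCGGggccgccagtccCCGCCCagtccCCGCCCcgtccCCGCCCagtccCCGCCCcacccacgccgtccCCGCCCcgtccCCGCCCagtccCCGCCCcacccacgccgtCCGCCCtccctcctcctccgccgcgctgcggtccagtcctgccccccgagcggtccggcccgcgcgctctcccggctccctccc
Hspg2 promoter, chr4:137468553-137468852, plus strand: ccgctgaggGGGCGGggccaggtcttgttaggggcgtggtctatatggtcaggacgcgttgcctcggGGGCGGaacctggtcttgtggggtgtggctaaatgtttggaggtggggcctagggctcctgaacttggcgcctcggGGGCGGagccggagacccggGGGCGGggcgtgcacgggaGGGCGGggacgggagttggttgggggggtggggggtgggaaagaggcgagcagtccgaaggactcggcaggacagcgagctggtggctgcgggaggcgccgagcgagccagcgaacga
The Lama5 promoter held 4 such matches, the Agrn promoter 12, of which 1 pair shares a base, and the Hspg2 promoter 5. Entries were found for 7 of the 10 genes, all except Lama4, Lamc1 and Nid2. A GC box on either strand was present in 6 of these 7 promoters, against 35.7% of 32851 promoters of the same length. The median share of G and C bases over all those promoters was 52.7%. It was 72.7% for Lama5, 83.3% for Agrn, 70.3% for Hspg2, 63.7% for Lamb1 and 64.7% for Nid1, while Lama2 and Lamb2 lay below the median. The part of base composition in the counts of this paragraph was not tested. The start of the Lama2 entry lies 2816 bases from the 5′ end of the gene in GENCODE, and without it 5 of 6 held a GC box. The TATA box TATAAA or its complement was present in 0 of the 7, against 13.6% of all promoters, and the CCAAT box or its complement in 2 of the 7 (Lamb1 and Nid1), against 37.4%. These matches describe letters and do not show binding.

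None of the beta and gamma chains among the 10 passed the test. Lamb1, the beta chain of most laminins, lies on chromosome 12 from 31265234 to 31329644, plus strand. It was at 144, 53.8 and 89.2 CPM in mPGES-1 KO and at 137, 199 and 303 CPM in WT. mPGES-1 KO replicate 1 lay above WT replicate 1, so the groups overlapped, and the log2 fold change of -1.15 ± 0.44 (SE) did not pass (adjusted p = 0.202, edgeR). Lamb2, the beta chain of the neuromuscular synapse and the kidney filter, lies on chromosome 9 from 108479736 to 108490530, plus strand. It was at 56.5, 25.6 and 22.8 CPM in mPGES-1 KO and at 38.2, 123 and 160.1 CPM in WT. WT replicate 1 lay within the mPGES-1 KO range, and the log2 fold change of -1.61 ± 0.58 (SE) did not pass (adjusted p = 0.183, edgeR). Both beta chains passed in limma-voom with quality weights, with adjusted p of 0.0420 for Lamb1 and 0.0368 for Lamb2. That fit called 1944 of all 16543 genes. Lamc1, the gamma chain shared by most laminins and the one that binds nidogen, lies on chromosome 1 from 153218922 to 153332786, minus strand. It was at 161, 51.0 and 98.2 CPM in mPGES-1 KO and at 75.4, 136 and 157 CPM in WT. The groups overlapped over most of their ranges, and the log2 fold change was -0.25 ± 0.46 (SE; adjusted p = 0.835, edgeR). It was 0.10 without mPGES-1 KO replicate 2.

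Chain make-up within each library does not depend on library scaling. Levels were divided by the bases of each gene's merged exons (CPM per kb), and for alpha and beta chains expressed as a share of all chains of the class in the table. Among the alpha chains, Lama4 took 20.7%, 36.3% and 24.9% in mPGES-1 KO replicates 1 to 3 and 58.5%, 55.6% and 44.1% in WT replicates 1 to 3. Lama5 took 36.8%, 15.3% and 28.3% in mPGES-1 KO and 7.0%, 7.16% and 6.77% in WT. For both chains the groups stood apart, in opposite directions, while Lama2 took 41.3 ± 1.21% in mPGES-1 KO and 38.0 ± 10.04% in WT (SD, n = 3 each). Shares of a class add up to the whole, so a lower Lama4 by itself raises the Lama5 share. The opposite directions are therefore not separate results, and the CPM of Lama5 overlapped between the groups. The shares also depend on the length used, which for Lama4 is 12068 merged exon bases or 6046 in the longest transcript. The ratio of Lama5 counts to Lama4 counts was 1.68, 0.397 and 1.07 in mPGES-1 KO and 0.113, 0.122 and 0.145 in WT. The mean log2 ratio was -0.16 ± 1.06 in mPGES-1 KO and -2.99 ± 0.18 in WT (SD, n = 3 each), a difference of 2.83. Its exact two-sided permutation p was 0.1, the smallest that 3 against 3 allows, and 0.4 after adjustment over the 4 ratios tested.

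**Figure D2:**
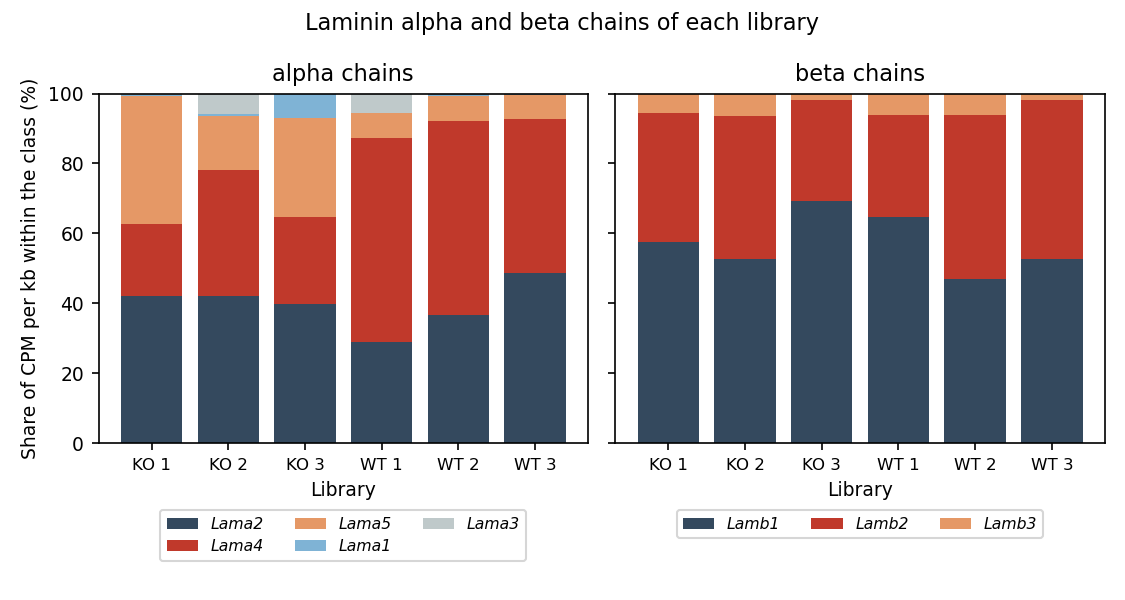
Share of CPM per kb (percent, y axis) that each laminin chain took within the alpha and the beta chains, for mPGES-1 KO (left) and WT (right) libraries on the x axis. Lama4 took 20.7% to 36.3% of the alpha chains in mPGES-1 KO and 44.1% to 58.5% in WT, and Lama5 took 15.3% to 36.8% in mPGES-1 KO and 6.77% to 7.16% in WT.

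The other 3 ratios showed no such separation. The log2 ratio of Lamb2 to Lamb1 averaged -1.46 ± 0.46 in mPGES-1 KO and -1.15 ± 0.61 in WT, a difference of -0.31 (exact permutation p = 0.5, adjusted 0.667). That of Nid2 to Nid1 averaged -4.48 ± 0.97 in mPGES-1 KO and -3.54 ± 1.12 in WT, a difference of -0.95 (exact permutation p = 0.4, adjusted 0.667). That of Agrn to Hspg2 averaged 0.68 ± 0.88 in mPGES-1 KO and 0.21 ± 1.76 in WT, a difference of 0.47 (exact permutation p = 0.8, adjusted 0.8), and it turned to -0.44 without WT replicate 3 and to -0.03 without mPGES-1 KO replicate 2. With 3 libraries a group, no ratio could reach 0.05.

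Further laminin chains were followed beside the 10 genes. Lamc3, a gamma chain, was at 5.93, 2.56 and 2.18 CPM in mPGES-1 KO and at 8.17, 13.4 and 72.3 CPM in WT. All 3 mPGES-1 KO libraries lay below all 3 WT libraries, with WT replicate 3 far above the rest, and the log2 fold change of -3.14 ± 0.94 did not pass (adjusted p = 0.120, edgeR). Lamb3, the beta chain of epithelial laminin, was at 9.25, 4.4 and 1.56 CPM in mPGES-1 KO and at 8.77, 17.1 and 7.06 CPM in WT. The groups overlapped, and the log2 fold change of -1.11 ± 0.84 (SE) did not pass (adjusted p = 0.547, edgeR). It took 1.81% to 6.46% of the beta chains in mPGES-1 KO and 1.84% to 6.18% in WT. Of the 4 chains in this list, Lama1, Lama3, Lamb3 and Lamc3, 0 were called, with 1 lower and 0 higher at an unadjusted p under 0.05, 1 lower by DESeq2 and 0 by limma-voom.

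The nidogens join the laminin sheet to collagen IV. Nid1 lies on chromosome 13 from 13437551 to 13512269, plus strand. It was at 308, 110.0 and 138 CPM in mPGES-1 KO and at 236, 263 and 296 CPM in WT. mPGES-1 KO replicate 1 was the highest of all 6 libraries and the other 2 mPGES-1 KO libraries the lowest, and the log2 fold change of -0.52 ± 0.40 (SE) did not pass (adjusted p = 0.558, edgeR). Nid2, its paralog, lies on chromosome 14 from 19751265 to 19811787, plus strand. It was at 20.2, 7.25 and 2.83 CPM in mPGES-1 KO and at 21.2, 48.0 and 11.5 CPM in WT. The groups overlapped, and the log2 fold change of -1.42 ± 0.82 (SE) did not pass (adjusted p = 0.415, edgeR). Its exons share 8.45% of their bases with Rtraf on the opposite strand, and the reads carry no strand, so its level is uncertain to that extent. For Lama2 and Nid1 the share is 3.86% and 2.06%, with antisense genes that are not rows of the table, and the other 7 genes share no exonic base with another annotated gene.

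The proteoglycans gave one separated and one overlapping pair of groups. Agrn, which clusters acetylcholine receptors at the neuromuscular synapse and bridges laminin to dystroglycan, lies on chromosome 4 from 156165290 to 156197488, minus strand. It was at 35.2, 34.4 and 20.4 CPM in mPGES-1 KO and at 52.9, 76.2 and 51.0 CPM in WT. All 3 mPGES-1 KO libraries lay below all 3 WT libraries, at a mean of 30.0 ± 8.29 and 60.1 ± 14.0 CPM (SD, n = 3 each), and the log2 fold change of -1.001 ± 0.35 (SE) did not pass (adjusted p = 0.169, edgeR). Hspg2, whose product is a very large proteoglycan of vessel and cartilage matrix, lies on chromosome 4 from 137468769 to 137570630, plus strand. It was at 35.7, 10.8 and 15.6 CPM in mPGES-1 KO and at 14.2, 59.8 and 157 CPM in WT. The WT libraries spread 11.1-fold from lowest to highest, with WT replicate 1 inside the mPGES-1 KO range. Its log2 fold change of -1.89 ± 0.83 (SE), the most negative of the 10, did not pass (adjusted p = 0.270, edgeR) and was -0.84 without WT replicate 3.

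Levels were compared between genes only per kb of merged exon. In mPGES-1 KO the order of mean CPM per kb was Nid1 at 26.7, Lamc1 at 12.5, Lamb1 at 9.66, Lamb2 at 5.75, Lama2 at 5.47, Lama5 at 3.94, Lama4 at 3.33, Agrn at 3.23, Nid2 at 1.95 and Hspg2 at 1.45. The ranges over libraries overlapped in all 9 neighbouring pairs of that order. In WT the order was Nid1 at 38.2, Lamb1 at 21.5, Lamb2 at 17.6, Lamc1 at 14.9, Lama4 at 12.3, Lama2 at 9.27, Agrn at 6.47, Hspg2 at 5.38, Nid2 at 5.20 and Lama5 at 1.65. Here 7 of 9 neighbouring pairs overlapped, and only Nid1 above Lamb1 and Nid2 above Lama5 were apart in range. By this measure Lama5 stood at rank 6 in mPGES-1 KO and rank 10 in WT, and Lama4 at rank 7 in mPGES-1 KO and rank 5 in WT. Dividing by the longest annotated transcript instead raised Lama4 to 6.65 CPM per kb in mPGES-1 KO and 24.5 CPM per kb in WT and placed it at rank 5 in mPGES-1 KO and rank 3 in WT. On that scale Lama4 lay above Lama5, at rank 7, in mPGES-1 KO, so the order of these chains in mPGES-1 KO depends on the length used. The Lama5 mean in mPGES-1 KO also rests on replicate 1, at 8.16 CPM per kb of merged exon beside 1.47 in replicate 2 and 2.18 in replicate 3.

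The remaining basement membrane genes, 16 tested of 19 listed, included 3 that fell and 1 that rose, where 1.56% and 1.2% of all tested genes did. At an unadjusted p under 0.05, 7 were lower and 3 higher, against 10.5% and 8.56% of all tested genes. Their median log2 fold change was -0.72. Col4a1 and Col4a2, the paired chains of the collagen IV network that nidogen ties to laminin, fell to 166 ± 92.8 and 93.6 ± 52.5 CPM in mPGES-1 KO, against 1474 ± 627 and 898 ± 437 CPM in WT (SD, n = 3 each). Their log2 fold changes were -3.15 ± 0.51 and -3.26 ± 0.53 (SE), with an adjusted p = 0.0281 for each in edgeR. Col18a1, which yields the fragment endostatin, fell by 3.47 ± 0.47 on the log2 scale (adjusted p = 0.0179, edgeR). Npnt, which encodes nephronectin, an integrin ligand of epithelial basement membranes, was at 37.5, 46.6 and 20.5 CPM in mPGES-1 KO and at 8.11, 7.75 and 6.92 CPM in WT. It rose by a log2 fold change of 2.20 ± 0.45 (adjusted p = 0.0484, edgeR). This call was lost with scaling by library size only (adjusted p = 0.0562, edgeR) and when any one library was left out, with adjusted p from 0.000119 to 0.196 over the 13 other fits. Set against the gamma chain in the same library, there were 1.69, 1.96 and 1.28 Col4a1 counts per Lamc1 count in mPGES-1 KO and 13.6, 16.1 and 7.68 in WT. This ratio was chosen after its values were seen and is given without a test.

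**Figure D3:**
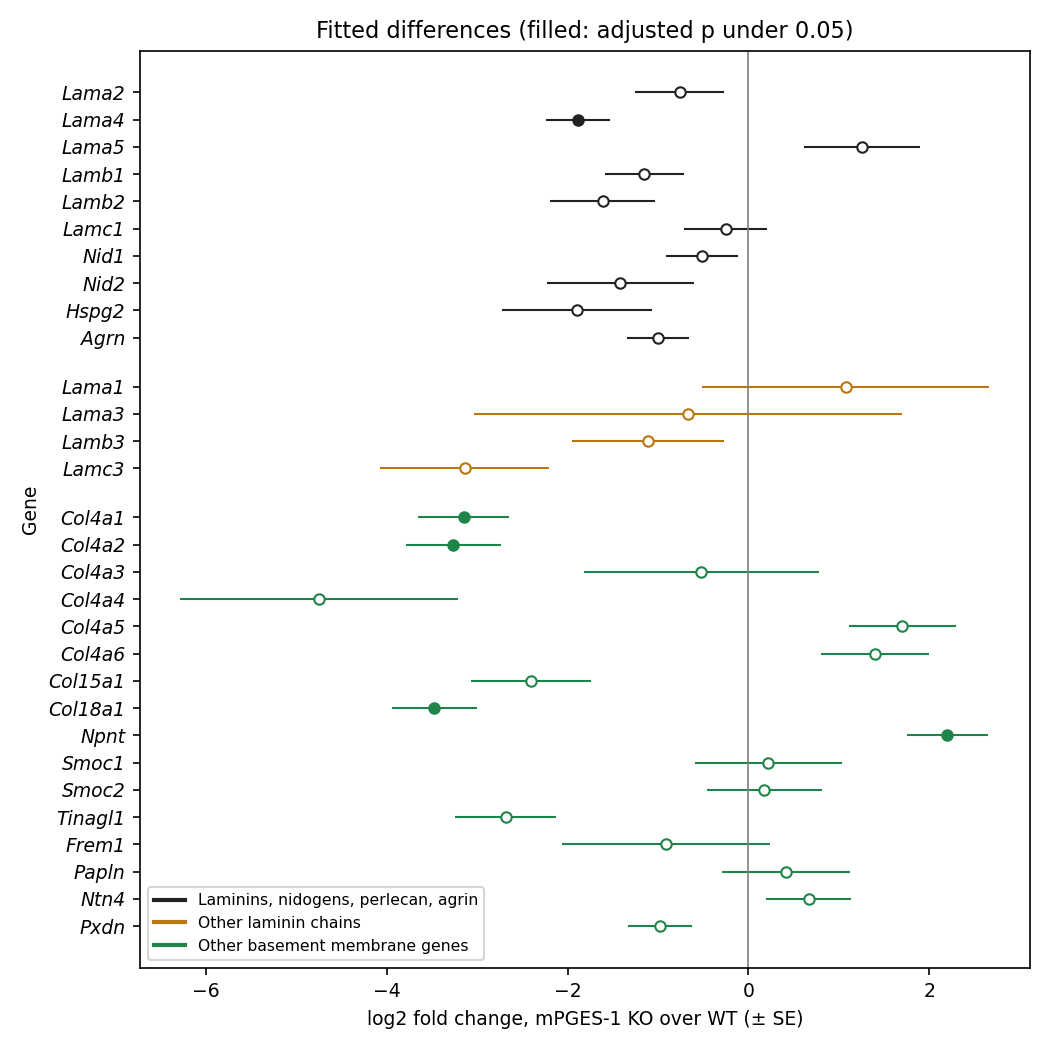
Fitted log2 fold changes of mPGES-1 KO over WT with their standard errors (x axis) for the 10 genes and for the other laminin and basement membrane genes that were tested (y axis), with filled points for an adjusted p under 0.05 in edgeR. Lama4 is the one filled point among the 10 at -1.88, Lama5 the one to the right of 0 at 1.26, and Col4a1, Col4a2 and Col18a1 lie below -3.

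Among 13 tested receptors for these proteins, 1 fell and 1 rose, where 1.56% and 1.2% of all tested genes did. At an unadjusted p under 0.05, 4 were lower and 3 higher, against 10.5% and 8.56% of all tested genes. The median log2 fold change was 0.37. Itga1, a subunit of the collagen and laminin receptor α1β1 of smooth muscle and pericytes, was at 21.0, 10.5 and 10.6 CPM in mPGES-1 KO and at 339, 390 and 116 CPM in WT. It fell by 4.32 ± 0.56 on the log2 scale (adjusted p = 0.0177, edgeR). Sdc4, a heparan sulfate proteoglycan of focal adhesions, was at 469, 553 and 564 CPM in mPGES-1 KO and at 89.5, 66.7 and 88.9 CPM in WT. It rose by a log2 fold change of 2.69 ± 0.26 (adjusted p = 0.0143, edgeR).

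Of 11 tested enzymes that build the laminin-binding sugar on dystroglycan, 2 were lower and 1 higher at an unadjusted p under 0.05. Their median was -0.29 on the log2 scale. By the adjusted p, 1 fell and 0 rose, where 1.56% and 1.2% of all tested genes did. This was Pomgnt2, an N-acetylglucosaminyltransferase of the core sugar, at 1.4996, 3.65 and 1.84 CPM in mPGES-1 KO and 39.8, 14.5 and 23.5 CPM in WT (log2 fold change -3.48 ± 0.66, adjusted p = 0.0395, edgeR). It was called in 5 of the 13 other fits and lost when any one library was left out. For Pomgnt1, which extends another of the core sugars, the fitted difference was -0.20 ± 0.50 (adjusted p = 0.885, edgeR). B4gat1, which primes the chain, had -1.55 ± 0.35 (adjusted p = 0.0638, edgeR), and 85.3% of its exonic bases are shared with another annotated gene on the same strand.

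Of 18 enzymes that make or edit heparan sulfate, the chain carried by perlecan and agrin, 0 were called, with 5 lower and 1 higher at an unadjusted p under 0.05, against 10.5% and 8.56% of all tested genes. DESeq2 called 2 lower and 1 higher, where it called 1097 of all 16543 genes lower and 996 higher. With limma-voom 1 was lower and 1 higher, where 967 and 977 of all genes were. Ext2, a subunit of the chain polymerase, was at 74.2 ± 12.4 CPM in mPGES-1 KO and 133 ± 23.5 CPM in WT (adjusted p = 0.132, edgeR). Sulf2, which removes sulfate from finished chains, was at 109 ± 18.9 CPM in mPGES-1 KO and 56.0 ± 4.75 CPM in WT (SD, n = 3 each; adjusted p = 0.0932, edgeR). Of 13 proteases that act on basement membranes, 4 were lower and 0 higher at an unadjusted p under 0.05. By the adjusted p, 1 fell and 0 rose, where 1.56% and 1.2% of all tested genes did. Mmp14, a membrane-bound metalloproteinase, fell by 1.82 ± 0.36 on the log2 scale (adjusted p = 0.0451, edgeR). This call was lost with DESeq2 size factors in edgeR (adjusted p = 0.0502) and with the replicate number as a block. It was also lost without mPGES-1 KO replicate 2 or 3 and without WT replicate 2 or 3. It held in 7 of the 13 other fits, with adjusted p from 0.000183 to 0.180 over all 13. The cathepsin genes Ctsb and Ctsl had 0.51 ± 0.32 and 0.61 ± 0.35 and did not pass. Exons of Ctsb, Ctsl and Pomgnt1 share 12.8%, 26.8% and 11.7% of their bases with other annotated genes, so these 3 values are uncertain.

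Cell type markers differed in the same libraries, as the plot of summed list levels shows. The pericyte genes Rgs5 and Pdgfrb were at 87.4 ± 35.2 and 57.3 ± 38.0 CPM in mPGES-1 KO and at 1554 ± 717 and 597 ± 251 CPM in WT. The other named pericyte genes, Ndufa4l2, Higd1b, Esam, Des and Notch3, fell too, with log2 fold changes from -6.36 to -3.62. The luminal genes Epcam and Krt8 were at 4443 ± 615 and 2754 ± 642 CPM in mPGES-1 KO and at 484 ± 147 and 493 ± 83.9 CPM in WT (SD, n = 3 each). Krt18, Elf3 and Cdh1 also rose, with differences of 2.26, 2.45 and 2.26 on the log2 scale. Of the 12 endothelial markers, 11 were tested and 0 were called, with 2 lower at an unadjusted p under 0.05, 2 lower by DESeq2 and 1 by limma-voom. Their sums were 17.9 to 161 CPM in mPGES-1 KO and 68.6 to 297 CPM in WT, and Cdh5, Tie1, Robo4 and Sox17 each had 0 counts in at least 1 library. Flt1 and Emcn, the most abundant of the list, were at 16.5 ± 25.7 and 3.88 ± 1.41 CPM in mPGES-1 KO and at 85.4 ± 91.3 and 42.9 ± 40.3 CPM in WT, and Pecam1 was at 12.96 ± 8.03 CPM in mPGES-1 KO and 2.47 ± 3.72 CPM in WT (SD, n = 3 each). Of the 24 called genes of all these lists, 0 passed without mPGES-1 KO replicate 2, without mPGES-1 KO replicate 3 or without WT replicate 2, and each kept its direction. Those fits called 0, 0 and 1 of all tested genes, so these losses are not particular to the 24. Among fibroblast markers, Thy1 alone fell, by 3.22 ± 0.44 on the log2 scale (adjusted p = 0.0184, edgeR). Pdgfra was at 101 ± 44.7 CPM in mPGES-1 KO and 93.4 ± 67.4 CPM in WT (adjusted p = 0.951, edgeR), and Col1a1 at 688 ± 453 CPM in mPGES-1 KO and 3897 ± 2765 CPM in WT (adjusted p = 0.1003, edgeR). Dcn was at 5805 ± 2817 CPM in mPGES-1 KO and 4320.0 ± 2793 CPM in WT (adjusted p = 0.789, edgeR). The part of these cell types in the Lama4 and Lama5 values was not tested.

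**Figure D4:**
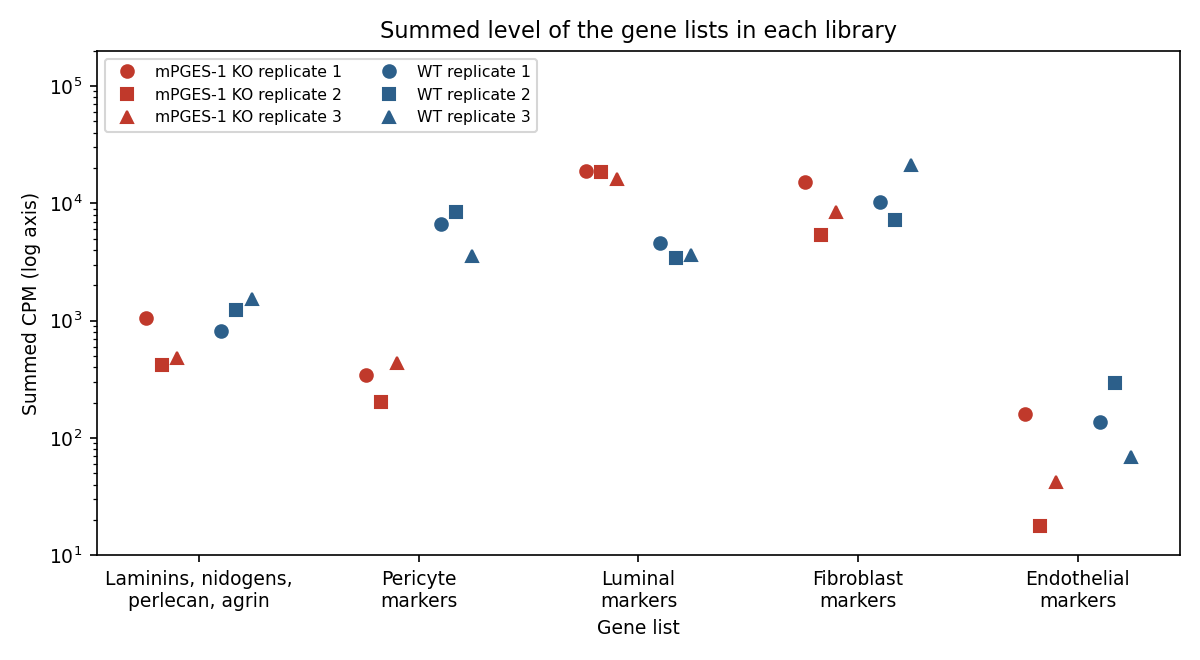
Summed CPM (log axis) of the 10 genes and of 4 marker lists (x axis) in each library, with mPGES-1 KO in red left of WT in blue. The pericyte sums reach 435 CPM in mPGES-1 KO and start at 3544 CPM in WT, the luminal sums start at 15998 CPM in mPGES-1 KO and reach 4623 CPM in WT, and the sums of the 10 genes overlap.

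Galnt16, Itga11, Nmral1 and Itih5 were among the genes whose course over the 6 libraries lay nearest to that of Lamc1. Their root mean square distances from it, in log2 CPM centred over the 6 libraries, ran from 0.14 to 0.20. Of the 10 genes themselves Nid1 was the nearest to Lamc1, at a distance of 0.34 and rank 75 of the 11346 genes that averaged 5 CPM or more, and Lama4 was at 1.00 and rank 7002.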

How the data were processed

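The authors deposited raw counts per gene symbol, whole numbers with no normalization, for 6 libraries in 1 table, and each column was matched to a sample by its label. Per the labels' protocols, a template-switching kit for ultra-low input gave cDNA, which was amplified by 16 PCR cycles and read singly for 75 cycles, so reads carry neither strand nor molecular identifiers. FastQC 0.11.5, the aligner STAR and the build mm10 are named in the submitters' processing notes. No source used here says how reads were counted or against which annotation. Nothing in the labels states that each library is a different animal; p-values therefore reflect the variation among these libraries only, and it may be technical.

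The test used edgeR 4.0.16 in R 4.3.3 (filterByExpr, TMM, robust quasi-likelihood fit, no covariate), and SE is the log2 fold change over the square root of F. Alternatives were DESeq2 1.42.0, limma 3.58.1 (voom), other scalings and filters, an adjusted p under 0.1, the replicate number as a block and each library left out. Ratios add 0.5 to each count. On simulated counts over 16543 genes with this spread, edgeR found 0 of 50 genes with a log2 change of 1, 14 of 50 with 2, 37 of 50 with 4 and 41 of 50 with 6, and made 5 false calls. DESeq2 found 3, 28, 45 and 47 of 50 at the same sizes with 95 false calls, and limma-voom 0, 12, 27 and 31 of 50 with 1. The common biological coefficient of variation was 0.818, and counts of the 10 genes ran from 100 to 11034 per library, so spread between libraries and not counting error limits the precision.

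The genes and lists were chosen with earlier results of these data known. Named are the 10 genes, called genes of each list (at most 6), the 2 highest uncalled genes where fewer than 2 were called, the 5 nearest genes to Lamc1 among those of at least 5 mean CPM without Gm and Rik names, and Ptges, Pdgfra, Pdgfrb, Rgs5, Epcam, Krt8 and Pecam1. Gene positions, merged exon lengths and overlaps come from GENCODE M21 (GRCm38). Some genes that these rules and lists would name are not reported here.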

Additional observations from a re-analysis of the deposited data

How the results depend on the processing

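The main count of 456 called genes was 2093 with the DESeq2 Wald test, 1944 with limma-voom, 1113 at an adjusted p under 0.1 and 0 with the replicate number as a block, and 0 to 568 with each library left out. It was 0 without mPGES-1 KO replicate 2 or 3, 1 without WT replicate 2, 150 without WT replicate 3 and 160 without mPGES-1 KO replicate 1. Where edgeR called 0, 2716 genes with the block, 2574 on leaving out mPGES-1 KO replicate 2 and 2975 on leaving out replicate 3 of that group had an unadjusted p under 0.05. The 1 lower gene of the 10 became 3 with limma-voom, 0 with the block (Lama4, adjusted p = 0.109) and 0 to 0 with each library left out, while 0 were higher in every setting. The 8 called genes of the 6 pathway lists became 24 with DESeq2, 20 with limma-voom, 13 at an adjusted p under 0.1, 0 with the block, and 0 to 8 with each library left out (0 without mPGES-1 KO replicate 2 or 3 or WT replicate 2, and 4 without WT replicate 3). Deviations of same-numbered libraries from their group means had correlations of -0.08, 0.03 and -0.004 over genes. With so few libraries, these values cannot show whether same-numbered libraries shared a batch. The labels give only the number.

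Lama4 kept its direction in all 14 settings and was called in 6 of the 13 other fits at 0.05 (adjusted p from 0.000247 to 0.171). Lamc1 ran from -0.71 to 0.10 with each library left out and was positive without mPGES-1 KO replicate 2. The median over the 10 genes ran from -1.47 to -0.73 with each library left out. The differences in log2 ratio ran from 2.38 to 3.42 for Lama5 to Lama4, -0.65 to -0.06 for Lamb2 to Lamb1, -1.52 to -0.39 for Nid2 to Nid1 and -0.44 to 1.31 for Agrn to Hspg2, where it was -0.03 without mPGES-1 KO replicate 2. A replicate block leaves the mean difference of each ratio unchanged by arithmetic (2.83 for Lama5 to Lama4), so it is no check of these values. Over all alternatives, 307 list counts stayed within 1.5 times of the main count and 85 did not. The 307 include counts of 0 that stayed at 0, also in fits that called 0 of all genes. They are therefore no measure of how stable the calls are. Of 20 levels per kb, 7 moved by more than 1 SD with the longest transcript. The cause of these shifts was not tested.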

Other observations

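Other cell types that make laminin were followed by markers. Of all 16543 tested genes, DESeq2 called 1097 lower and 996 higher, and limma-voom 967 lower and 977 higher. Of 5 tested Schwann cell markers 0 were called, with 1 lower and 2 higher at an unadjusted p under 0.05, where 10.5% of all tested genes were lower and 8.56% higher, and limma-voom and DESeq2 each called 1 lower and 2 higher. Sox10, a transcription factor of the neural crest lineage that mammary epithelium also uses, was at 146, 128 and 132 CPM in mPGES-1 KO and at 87.0, 57.3 and 68.1 CPM in WT (adjusted p = 0.101, edgeR). The adhesion gene Cdh19 was at 26.0, 59.3 and 45.2 CPM in mPGES-1 KO and at 11.9, 1.58 and 3.35 CPM in WT (adjusted p = 0.0925, edgeR). For both genes all mPGES-1 KO libraries lay above all WT libraries. Ngfr, a neurotrophin receptor, stood apart in the other direction, at 0.0732, 0.0419 and 0.0283 CPM in mPGES-1 KO and at 4.5997, 2.99 and 1.98 CPM in WT (adjusted p = 0.0752, edgeR). It was named after its values were seen.

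Of 4 tested basal and myoepithelial markers 0 were called by edgeR, DESeq2 or limma-voom and 0 had an unadjusted p under 0.05, and their sums were 98.0 to 229 CPM in mPGES-1 KO and 47.7 to 139 CPM in WT. Krt14 and Krt17 led them, at 108 ± 52.7 and 33.0 ± 24.8 CPM in mPGES-1 KO and 64.7 ± 31.6 and 28.6 ± 20.8 CPM in WT (SD, n = 3 each). Of 10 leukocyte markers 0 were called, with 1 higher at an unadjusted p under 0.05, 1 higher by DESeq2 and 0 by limma-voom, and sums of 334 to 1376 CPM in mPGES-1 KO and 237 to 770.4 CPM in WT. Lyz2 and Tyrobp led them, at 543 ± 314 and 89.6 ± 62.8 CPM in mPGES-1 KO and 225 ± 142 and 56.1 ± 53.8 CPM in WT. Of 5 tested adipocyte markers 0 were called, with 1 lower at an unadjusted p under 0.05, 0 by DESeq2 and 1 lower by limma-voom, and sums of 71.4 to 353 CPM in mPGES-1 KO and 278 to 701 CPM in WT. Fabp4 and Cfd led them, at 171 ± 126 and 22.9 ± 16.7 CPM in mPGES-1 KO and 457 ± 175 and 32.1 ± 41.0 CPM in WT.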
